A study of Homo sapiens with 14 samples.

Results

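REST is the transcription factor that keeps neuronal genes silent outside the nervous system. It was followed here with 9 genes that it is known to repress: SYP, SYN1, SNAP25, STMN3, CHGB, SCG5, VGF, L1CAM and CELSR3. These genes, and the lists set beside them, were chosen with earlier results of these data known. A share of all genes given beside a count of them is therefore a description and not a test. The 10 genes were taken by symbol, and all 10 had a row among the 28501 named rows of the replicate 1 table and among the 25209 rows of the replicate 2 table. They were measured as FPKM (fragments per kilobase of transcript, scaled to the size of the library), a level per length that allows genes to be set beside each other, in 14 RNA-seq libraries of U2OS, an established human osteosarcoma cell line.

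The cells received 1 of 9 small molecules or the solvent alone. 2-PCPA (tranylcypromine), given at 1 mM for 12 h, inhibits the histone demethylase KDM1A and monoamine oxidases. GSK343, given at 10 μM for 24 h, inhibits the H3K27 methyltransferase EZH2, and rapamycin, given at 5 μM for 24 h, inhibits the kinase mTOR. These compounds and DMSO had 2 libraries each, replicate 1 in one table and replicate 2 in the other. The remaining 6 compounds had 1 library each, in the replicate 1 table. SAHA (1 μM, 24 h) and VPA (20 μM, 24 h) inhibit histone deacetylases. BIX-01294 at 5 μM for 12 h and BRD4770 at 20 μM for 24 h are aimed at the H3K9 methyltransferases EHMT1 and EHMT2. GSK-J4 (20 μM, 12 h) inhibits the H3K27 demethylases of the KDM6 family, and UNC1215 (50 μM, 24 h) binds the methyl-lysine reader L3MBTL3. All cells were of 1 line grown in 1 medium, the reference was DMSO at 0.5% by volume, and the labels give no exposure time for it. Nothing in the labels says that replicates were separate cultures, so the p-values below measure the spread between these libraries, which may be technical.

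REST binds a conserved DNA element called RE1 and recruits 2 corepressor complexes, one built on SIN3A and the other on CoREST (RCOR1). Both carry the deacetylases HDAC1 and HDAC2, CoREST also carries KDM1A, and the H3K9 methyltransferase EHMT2 can join them. Several of the compounds are therefore directed at enzymes named here, whereas the targets of rapamycin, GSK343, GSK-J4 and UNC1215 are not among them. REST protein is removed by ubiquitination through BTRC, and the neural splicing factor SRRM4 makes a truncated REST, so REST mRNA alone does not give REST activity. No REST protein and no REST binding was measured in this series.

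Promoter sequence was searched for RE1 to show which of the genes carry the element next to their start. RefSeq windows of 250 bases before to 50 bases after each start (build GRCh38.p14) were compared on both strands with the consensus of RE1, which has 21 letters of which 19 are fixed. A window was counted when at least 15 of the 19 letters matched. Of the 35116 windows of all genes, 108 passed (0.31%), and the median best match was 11 letters. Windows existed for 8 of the 10 genes, all but SNAP25 and CHGB, and 3 of the 8 passed. The sites are printed 5′ to 3′ on the strand of the element, with letters that match it in capitals. GRIA2, another REST target, is printed first because it matched all 19 fixed letters and so spells the element.

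GRIA2, chr4:157220388-157220408, minus strand, 19 letters: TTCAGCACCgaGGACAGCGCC

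SYN1, chrX:47620070-47620090, minus strand, 18 letters: TTCAGCACCgcGGACAGtGCC

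VGF, chr7:101165559-101165579, plus strand, 18 letters: TTCAGCACgctGGACAGCGCC

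CELSR3, chr3:48663014-48663034, minus strand, 15 letters: TTCAGCACCagGagCAaCGCt

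The centre of the site lay 223 bases upstream of the start in SYN1 and 138 bases upstream in CELSR3, and it fell on the start base itself in VGF. The CELSR3 site opened with the exact left part of the element (the first run of capitals in GRIA2), and the exact right part (the second run) lay apart from it, upstream, with its first base at −237 from the start. Either part was rare: 0.38% of all windows held the left one and 0.26% the right one on either strand. STMN3 was the nearest gene under the minimum with 14 matching letters, followed by REST with 13, SCG5 and SYP with 12 each and L1CAM with 11. Of 30 other genes known as REST targets, 20 had a window and 1, the glutamate receptor gene GRIA2, passed. UNC13A, with 14 letters, held both exact parts on the strand opposite to the gene, at −12 (right) and 7 (left) from its start. They lay in the order of the element, which those of CELSR3 did not, but with a wider gap than the search allows. A match is a description of letters in this window and not a measured site, and elements in introns or farther upstream were not searched.

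The libraries reached similar numbers of genes but differed in depth, and 1 of them stood apart. Between 12045 and 13157 genes reached 1 FPKM per library. Relative depth, estimated from the steps of low FPKM values, ran between 0.553 (BIX-01294) and 1.24 (SAHA) times that of DMSO in the replicate 1 table. It ran between 0.681 and 0.809 times in the replicate 2 table. In 2-PCPA replicate 1, 28% of 375 olfactory receptor rows, which are normally silent outside sensory tissue, were above 0, against 2.4% to 6.4% in the other libraries of that table, and the median gene lay 0.43 lower than DMSO on the log2 scale. In 2-PCPA replicate 2 the median gene differed from DMSO by 0.01. Differences with 2-PCPA are therefore given for each replicate beside the estimate from both. Of the 9 osteoblast markers, SPARC (154 to 330 FPKM) and COL1A1 (74.0 to 187 FPKM) were present in all 14 libraries. RUNX2 and SPP1 were above 0 in all 14, at lower levels. SP7 was listed at 0 in all 14, IBSP in 11, BGLAP in 10 (all of the replicate 1 table), COL1A2 in 8 and ALPL in 1. Of the neuronal lineage markers, INSM1 was listed at 0 in 13 of 14 libraries and ELAVL4 and NEUROG2 in 11 of 14 each, while ENO2, NEFL and NCAM1 were present throughout.

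**Figure D1:**
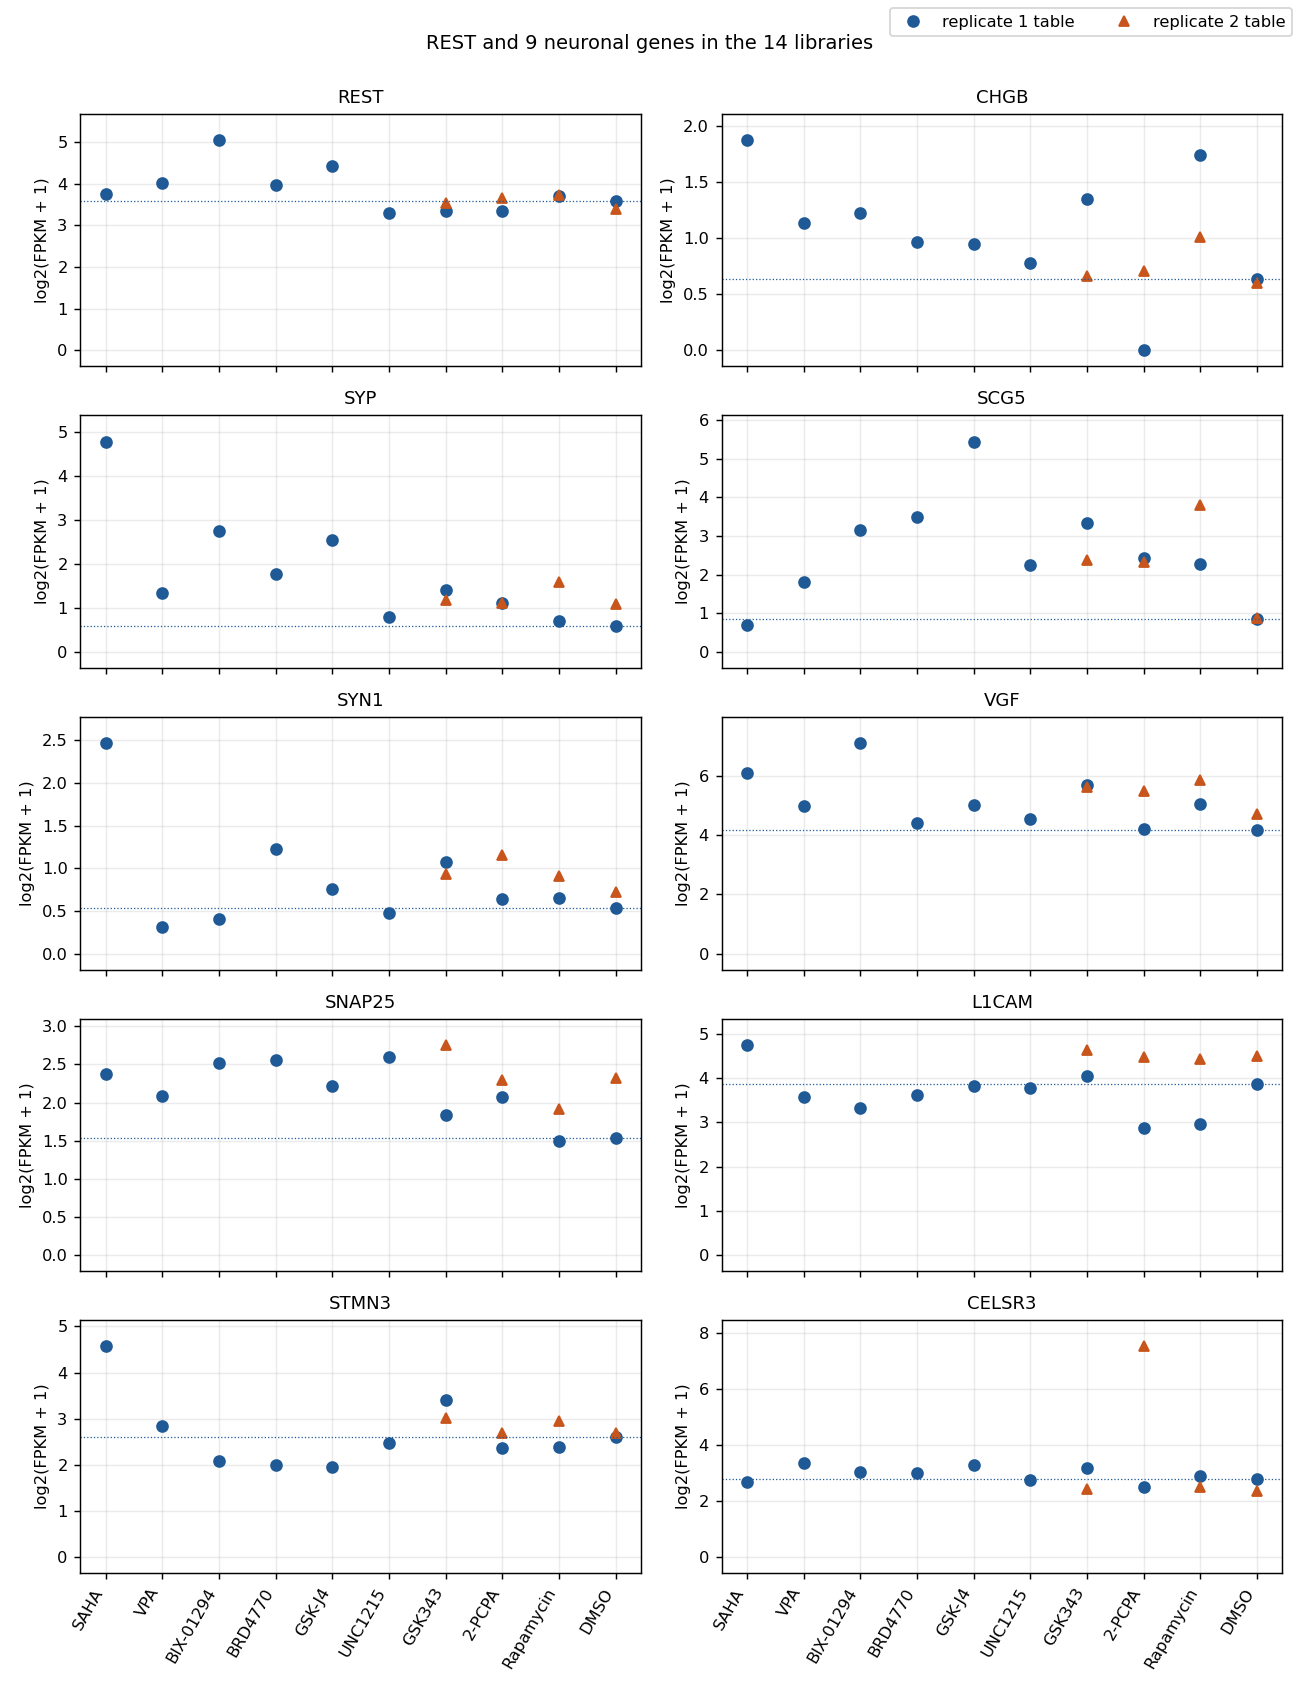
Level of each of the 10 genes as log2(FPKM + 1) (y axis) in each library, by compound (x axis, DMSO at the right). Circles are libraries of the replicate 1 table and triangles those of the replicate 2 table, 1 point per library, and the dotted line is DMSO replicate 1. SYP, SYN1 and STMN3 were highest in SAHA, SCG5 in GSK-J4, VGF and REST in BIX-01294, and the CELSR3 triangle in 2-PCPA stood at 184 FPKM.

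REST mRNA was present in every library and was highest with BIX-01294. In the replicate 1 table it stood at 32.2 FPKM with BIX-01294, 20.4 with GSK-J4, 15.2 with VPA, 14.6 with BRD4770, 12.5 with SAHA, 12.1 with rapamycin, 9.25 with 2-PCPA, 9.18 with GSK343 and 8.88 with UNC1215, against 10.96 with DMSO. In the replicate 2 table it stood at 12.3 FPKM with rapamycin, 11.6 with 2-PCPA and 10.7 with GSK343, against 9.43 with DMSO. BIX-01294 and GSK-J4 were above all the others, and the values of the replicated compounds spread around DMSO. On the scale of log2(FPKM + 1) used for all differences here, REST differed from DMSO by 0.03 ± 0.21 with 2-PCPA, by −0.03 ± 0.21 with GSK343 and by 0.24 ± 0.21 with rapamycin (SE, n = 2 each). The adjusted p-values of limma, a linear model fitted across all genes, were 0.968, 0.996 and 0.834 in that order, and the 95% intervals spanned −0.45 to 0.51, −0.51 to 0.45 and −0.24 to 0.72. With 2-PCPA the replicates gave −0.22 and 0.28, and with GSK343 they also differed in sign.

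Of 16 corepressor genes, 1 was past 2-fold higher than DMSO (a difference of at least 1 on the log2 scale) with BIX-01294, where 9.97% of all genes were, and 1 with GSK-J4, where 8.92% were. None was so with BRD4770 (5.94% of all genes), SAHA (7.79%), VPA (2.81%) or UNC1215 (1.8%), and none was past 2-fold lower with any of the 6. These shares are of the 12804 genes averaging 1 FPKM or more in the replicate 1 table, and at most 1 of 16 is near or under each of them. With BIX-01294 the gene was RCOR1, the CoREST scaffold, at 18.4 FPKM against 6.79 with DMSO. With GSK-J4 it was the related RCOR2, at 2.89 against 0.560, and it reached the minimum mean of 1 FPKM only through that library. KDM1A, the demethylase of CoREST and the target of 2-PCPA, stood at 33.8 and 52.1 FPKM in the 2-PCPA libraries (replicates 1 and 2), against 47.2 and 50.4 with DMSO. HDAC1 stood at 47.1 and 60.2 FPKM with 2-PCPA, against 80.1 and 73.6 with DMSO, and HDAC2 at 15.2 and 19.8 FPKM, against 26.1 and 20.9. SIN3A stood at 13.8 and 20.1 FPKM with 2-PCPA, against 19.1 and 20.8 with DMSO. With rapamycin KDM1A stood at 31.5 and 40.5 FPKM (difference from DMSO −0.44 ± 0.23, SE, n = 2 each; adjusted p = 0.757 in limma). None of the 16 passed limma's adjusted threshold with 2-PCPA, GSK343 or rapamycin. EHMT2 was listed at 0 in every library of the replicate 1 table and between 24.8 and 33.8 FPKM in the replicate 2 table, so it has no usable level with BIX-01294 or BRD4770. BTRC, which marks REST for degradation, was highest at 18.8 FPKM with BIX-01294, the compound with the highest REST, and next at 12.3 FPKM with UNC1215, the compound with the lowest, against 6.20 with DMSO. SRRM4 stayed at or under 0.08 FPKM in all libraries.

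SYP encodes synaptophysin, a membrane protein of synaptic vesicles, and with SAHA it was the furthest of the 10 from DMSO. It reached 26.7 FPKM with SAHA, 5.75 with BIX-01294, 4.83 with GSK-J4, 2.40 with BRD4770, 1.67 with GSK343, 1.53 with VPA, 1.18 with 2-PCPA, 0.741 with UNC1215 and 0.640 with rapamycin, against 0.513 with DMSO. In the replicate 2 table it was 2.00 FPKM with rapamycin, 1.28 with GSK343 and 1.17 with 2-PCPA, against 1.12 with DMSO. All 12 compound libraries were above the DMSO library of their own table, by 52.0-fold in SAHA and by little in the replicate 2 table. Of the 12, 9 share DMSO replicate 1, the lowest library of that table for SYP, so they are not independent of each other. The same sharing limits every count over the 12 compound libraries given here. The low DMSO level makes the ratio imprecise, and on the log2(FPKM + 1) scale the SAHA difference was 4.19. With 2-PCPA, GSK343 and rapamycin the differences were 0.28 ± 0.34, 0.46 ± 0.34 and 0.31 ± 0.34 (SE, n = 2 each), and limma's adjusted p-values were 0.740, 0.949 and 0.877. With 2-PCPA the replicates gave 0.53 and 0.03. In bulk RNA, more cells with the transcript and more transcript per cell cannot be told apart, which holds for every level given here.

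SYN1, which encodes the synaptic vesicle phosphoprotein synapsin I and carries an 18-letter element upstream of its start, was low except with SAHA. It stood at 4.53 FPKM with SAHA, 1.35 with BRD4770, 1.11 with GSK343, 0.690 with GSK-J4, 0.569 with rapamycin, 0.556 with 2-PCPA, 0.395 with UNC1215, 0.326 with BIX-01294 and 0.247 with VPA, against 0.445 with DMSO. Replicate 2 gave 1.22 FPKM with 2-PCPA, 0.909 with GSK343 and 0.881 with rapamycin, against 0.648 with DMSO. SAHA was the 1 library well clear of the others. The mean over the 8 libraries of the replicated groups was 0.792 FPKM, under the minimum of 1, so SYN1 was not tested.

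SNAP25 encodes a plasma membrane SNARE of vesicle fusion. On the log2(FPKM + 1) scale it was past 2-fold higher than DMSO with UNC1215 and BRD4770. Its plain FPKM ratio to DMSO was also over 2 with BIX-01294 (2.48) and SAHA (2.2). Its replicate 1 levels were 5.05 FPKM with UNC1215, 4.89 with BRD4770, 4.71 with BIX-01294, 4.18 with SAHA, 3.66 with GSK-J4, 3.27 with VPA, 3.20 with 2-PCPA, 2.56 with GSK343 and 1.82 with rapamycin, against 1.90 with DMSO. Replicate 2 gave 5.76 FPKM with GSK343, 3.92 with 2-PCPA and 2.76 with rapamycin, against 3.998 with DMSO. It was above the DMSO of its own table in 9 of the 12 compound libraries, and its highest replicate 1 level was 2.78 times its lowest. The differences in limma were 0.25 ± 0.25 with 2-PCPA, 0.37 ± 0.25 with GSK343 and −0.23 ± 0.25 with rapamycin (SE, n = 2 each; adjusted p-values of 0.682, 0.949 and 0.875). With 2-PCPA the replicates gave 0.53 and −0.02.

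STMN3, a stathmin that binds tubulin in neurons, was highest with SAHA and lower than DMSO in 6 of the 12 compound libraries. It stood at 22.7 FPKM with SAHA, 9.54 with GSK343, 6.19 with VPA, 4.54 with UNC1215, 4.24 with rapamycin, 4.15 with 2-PCPA, 3.24 with BIX-01294, 2.99 with BRD4770 and 2.84 with GSK-J4, against 5.06 with DMSO. Replicate 2 gave 7.04 FPKM with GSK343, 6.73 with rapamycin and 5.47 with 2-PCPA, against 5.45 with DMSO. GSK343 was above DMSO in both tables, with a difference of 0.56 ± 0.26 (SE, n = 2 each; adjusted p = 0.949 in limma). With 2-PCPA the difference was −0.12 ± 0.26 (adjusted p = 0.862 in limma), made of −0.23 in replicate 1 and 0.0033 in replicate 2, and its sign turned (0.085) when each library was centred on its median.

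Dense-core granules store peptide hormones and neuropeptides, and 3 of the genes belong to them. CHGB encodes chromogranin B, a bulk granule protein, SCG5 encodes 7B2, the chaperone of the convertase PCSK2, and VGF encodes the precursor of several secreted neuropeptides. CHGB stood at 2.66 FPKM with SAHA, 2.34 with rapamycin, 1.54 with GSK343, 1.33 with BIX-01294, 1.19 with VPA, 0.956 with BRD4770, 0.933 with GSK-J4 and 0.715 with UNC1215, and it was listed at 0 with 2-PCPA, against 0.550 with DMSO. In the replicate 2 table it stood at 1.02 FPKM with rapamycin, 0.631 with 2-PCPA and 0.581 with GSK343, against 0.511 with DMSO. It was above DMSO in 11 of 12 compound libraries, at low levels throughout. The mean over the 8 libraries was 0.897 FPKM, so CHGB was not tested.

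SCG5 had the widest range in the replicate 1 table, where its highest level was 68.9 times its lowest. It stood at 42.4 FPKM with GSK-J4, 10.1 with BRD4770, 9.18 with GSK343, 7.97 with BIX-01294, 4.41 with 2-PCPA, 3.85 with rapamycin, 3.73 with UNC1215, 2.51 with VPA and 0.615 with SAHA, against 0.801 with DMSO. Replicate 2 gave 12.8 FPKM with rapamycin, 4.24 with GSK343 and 3.99 with 2-PCPA, against 0.830 with DMSO. The 2 DMSO libraries were close to each other, and 11 of the 12 compound libraries were above them. SAHA, with the largest value of SYP, SYN1, STMN3, CHGB and L1CAM, had the smallest value of SCG5.

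Of the 8 genes that could be tested, SCG5 was the 1 past 2-fold higher in both replicates, and it was so with 2-PCPA, with GSK343 and with rapamycin. Among all 12603 tested genes, 0.127% were past 2-fold higher in both replicates with 2-PCPA, 0.309% with GSK343 and 0.341% with rapamycin. The difference for SCG5 was 1.52 ± 0.48 with 2-PCPA (SE, n = 2 each; 95% interval 0.43 to 2.61), 2.01 ± 0.48 with GSK343 (0.92 to 3.10) and 2.17 ± 0.48 with rapamycin (1.08 to 3.27). Over all tested genes, the adjusted p-values in limma were 0.592, 0.798 and 0.546, so SCG5 did not pass the threshold of 0.05 with any of them. The unadjusted values were 0.0122, 0.00266 and 0.00165 in limma. When small RNA and clone rows were left out of the fit, SCG5 passed with all 3 (adjusted p = 0.0302, 0.00312 and 0.000555 in limma), so the call rests on which rows enter. Fitted on the 2 groups alone, SCG5 passed with 2-PCPA (adjusted p = 2.74e-06 in limma). That fit leaned on the spread taken from all genes, and it also called CELSR3, whose replicates differed in sign. With each library left out in turn, the difference ran between 1.24 and 3.10 with rapamycin, between 1.29 and 2.72 with GSK343 and between 1.36 and 1.67 with 2-PCPA. The 3.10, without rapamycin replicate 1, passed (adjusted p = 0.0252 in limma), and the 1.24, without rapamycin replicate 2, did not. Each rests on 1 rapamycin library, with the spread taken from the other groups. With 2-PCPA the difference was 1.59 in replicate 1, the library that stood apart, and 1.45 in replicate 2. The 3 comparisons share their DMSO libraries and are not independent of each other.

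VGF, with an 18-letter element at its start, had the highest level of the 10 in every library except GSK-J4, where SCG5 stood higher, and 2-PCPA replicate 2, where the CELSR3 row did. It was above the DMSO of its own table in all 12 compound libraries, of which 9 share DMSO replicate 1, the lowest library of that table for VGF. It stood at 135 FPKM with BIX-01294, 66.7 with SAHA, 50.2 with GSK343, 31.7 with rapamycin, 31.4 with GSK-J4, 30.3 with VPA, 22.1 with UNC1215, 20.2 with BRD4770 and 17.3 with 2-PCPA, against 17.0 with DMSO. Replicate 2 gave 56.3 FPKM with rapamycin, 47.9 with GSK343 and 43.1 with 2-PCPA, against 25.1 with DMSO. The difference was 1.21 ± 0.31 with GSK343 (SE, n = 2 each; 95% interval 0.50 to 1.92; adjusted p = 0.921 in limma), 1.00 ± 0.31 with rapamycin (0.29 to 1.71; adjusted p = 0.676) and 0.39 ± 0.31 with 2-PCPA (−0.32 to 1.10; adjusted p = 0.624). Without small RNA and clone rows the GSK343 difference passed (adjusted p = 0.0404 in limma). With 2-PCPA the replicates gave 0.03 and 0.76.

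L1CAM and CELSR3 encode surface proteins of axon growth, an immunoglobulin-type adhesion molecule and a cadherin with a receptor-like membrane part. L1CAM stood at 25.8 FPKM with SAHA, 15.6 with GSK343, 13.1 with GSK-J4, 12.6 with UNC1215, 11.2 with BRD4770, 10.8 with VPA, 9.06 with BIX-01294, 6.78 with rapamycin and 6.35 with 2-PCPA, against 13.5 with DMSO. Replicate 2 gave 23.9 FPKM with GSK343, 21.1 with 2-PCPA and 20.6 with rapamycin, against 21.5 with DMSO. It was above DMSO in 3 of the 12 compound libraries, the fewest of the 10 genes. The differences of −0.50 ± 0.30 with 2-PCPA and −0.48 ± 0.30 with rapamycin (SE, n = 2 each) came mostly from replicate 1, where they were −0.98 and −0.89, against −0.03 and −0.06 in replicate 2. Neither passed in limma (adjusted p = 0.593 and 0.774), nor did the 0.17 ± 0.30 with GSK343 (adjusted p = 0.968).

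CELSR3 stood between 4.63 and 9.32 FPKM over the 9 compounds of the replicate 1 table, with VPA highest and 2-PCPA lowest, against 5.93 with DMSO. Its row in the replicate 2 table read 184 FPKM with 2-PCPA, 4.64 with rapamycin and 4.45 with GSK343, against 4.12 with DMSO. The value of 184 stands far from every other, and replicate 1 of the same compound lay below DMSO (4.63 against 5.93 FPKM). In the replicate 2 table the CELSR3 row was identical in all 4 libraries to the row of MIR4793, a microRNA whose hairpin of 87 bases lies inside CELSR3. In the replicate 1 table MIR4793 was listed at 0 in all 10 libraries. Such identical rows made up 5.82% of the rows above 0 in the replicate 2 table and 0.61% in the replicate 1 table. The neighbouring genes NCKIPSD (16.9 FPKM with 2-PCPA, 14.7 with DMSO) and SLC26A6 (11.1 FPKM with 2-PCPA, 9.33 with DMSO) showed no such value in replicate 2. Which of the 2 transcripts the 184 FPKM belongs to cannot be told apart from these tables. The difference with 2-PCPA was 2.44 ± 1.19 (SE, n = 2 each; 95% interval −0.29 to 5.16; adjusted p = 0.592 in limma), made of −0.30 in replicate 1 and 5.18 in replicate 2. Without 2-PCPA replicate 1 it was 5.22 and without 2-PCPA replicate 2 it was −0.34. The first passed (adjusted p = 0.00295 in limma), but it rests on the 1 library with the value of 184, with the spread taken from the other groups, and so adds nothing to that value. With the 2 groups fitted alone the adjusted p in limma was 4.35e-08. The replicates gave −0.30 and 5.18, so a value that small cannot come from the spread of CELSR3 between libraries. It rests on the spread that limma takes from all genes, and it adds nothing to the value of 184. With GSK343 and rapamycin the differences were 0.24 ± 1.19 and 0.12 ± 1.19 (adjusted p = 0.994 and 0.995 in limma). The replicates gave 0.39 and 0.09 with GSK343 and 0.11 and 0.14 with rapamycin, close to each other. The SE of 1.19 was the same in every comparison because 1 spread was fitted over all 8 libraries, the value of 184 included.

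**Figure D2:**
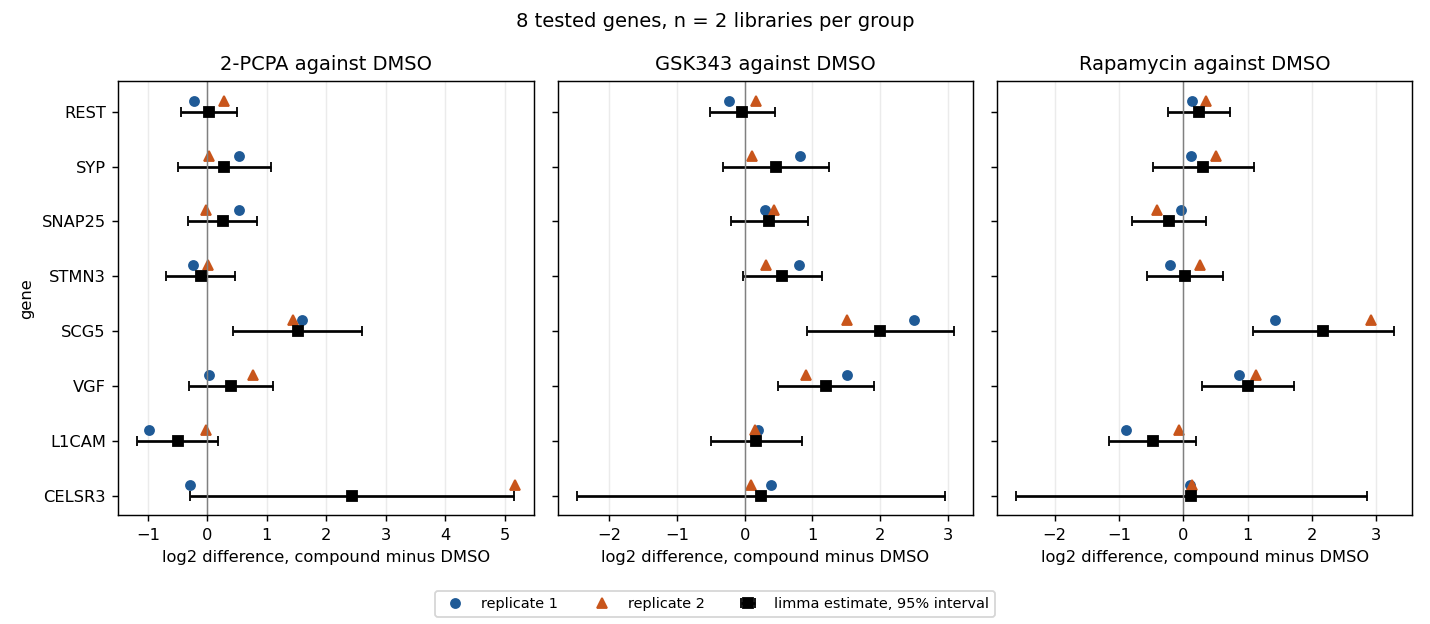
Differences from DMSO in log2(FPKM + 1) (x axis) for the 8 tested genes (y axis) with 2-PCPA, GSK343 and rapamycin. Circles are replicate 1, triangles replicate 2, and squares the limma estimate with its 95% interval. The interval of SCG5 lay above 0 in all 3 panels and that of VGF with GSK343 and rapamycin, while the 2-PCPA points of CELSR3 were −0.30 and 5.18.

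For the replicated compounds, none of the 8 tested genes passed limma's adjusted threshold. Over all 12603 tested genes 3 were called with 2-PCPA (0.0238%), 2 with GSK343 (0.0159%) and 2 with rapamycin (0.0159%), so the fit called hardly any gene. At an unadjusted p under 0.05 there were 1 of 8 with 2-PCPA (SCG5; background 7.48%), 2 with GSK343 (SCG5 and VGF; 4.22%) and 2 with rapamycin (SCG5 and VGF; 6.46%). The median difference of the 8 genes was 0.27 with 2-PCPA, 0.41 with GSK343 and 0.18 with rapamycin, beside −0.20, 0.03 and −0.05 for all tested genes. In both replicates 7 of 8 genes were higher than DMSO with GSK343 and none lower, beside 34.6% and 26.7% of all tested genes. With rapamycin 5 were higher and 2 lower, beside 25.5% and 37.1%, and with 2-PCPA 3 were higher and 1 lower, beside 11.5% and 42.2%. The exception with GSK343 was REST itself, which was lower in replicate 1 and higher in replicate 2.

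Set directly against GSK343, 2-PCPA differed by −0.82 ± 0.31 in VGF and by −0.67 ± 0.26 in STMN3 (SE, n = 2 each), with adjusted p = 0.418 for both in limma. Both were larger in replicate 1, which holds the 2-PCPA library that stood apart: VGF gave −1.48 in replicate 1 and −0.15 in replicate 2, and STMN3 gave −1.03 and −0.31. With a library left out they ran from −1.28 to −0.35 and from −1.03 to −0.31, nearest to 0 without GSK343 replicate 1. SCG5 differed by −0.49 ± 0.48 (95% interval −1.58 to 0.60; adjusted p = 0.643 in limma), with −0.91 in replicate 1 and −0.07 in replicate 2. Set against rapamycin, 2-PCPA differed by −0.61 ± 0.31 in VGF (95% interval −1.32 to 0.10; adjusted p = 0.478) and by −0.66 ± 0.48 in SCG5 (−1.75 to 0.44; adjusted p = 0.613 in limma). There the replicates gave −0.84 and −0.38 for VGF, and 0.16 and −1.47 for SCG5. CELSR3 differed by 2.20 ± 1.19 against GSK343 (−0.69 and 5.09 in the replicates) and by 2.32 ± 1.19 against rapamycin (−0.41 and 5.04), so that both rest on the value of 184 FPKM. None of the 8 genes passed in either comparison, in which 0.0317% and 0.0476% of all tested genes did. Doses and times differ between these compounds (1 mM for 12 h with 2-PCPA, 10 μM and 5 μM for 24 h with GSK343 and rapamycin), so the differences are between treatments as given.

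**Figure D3:**
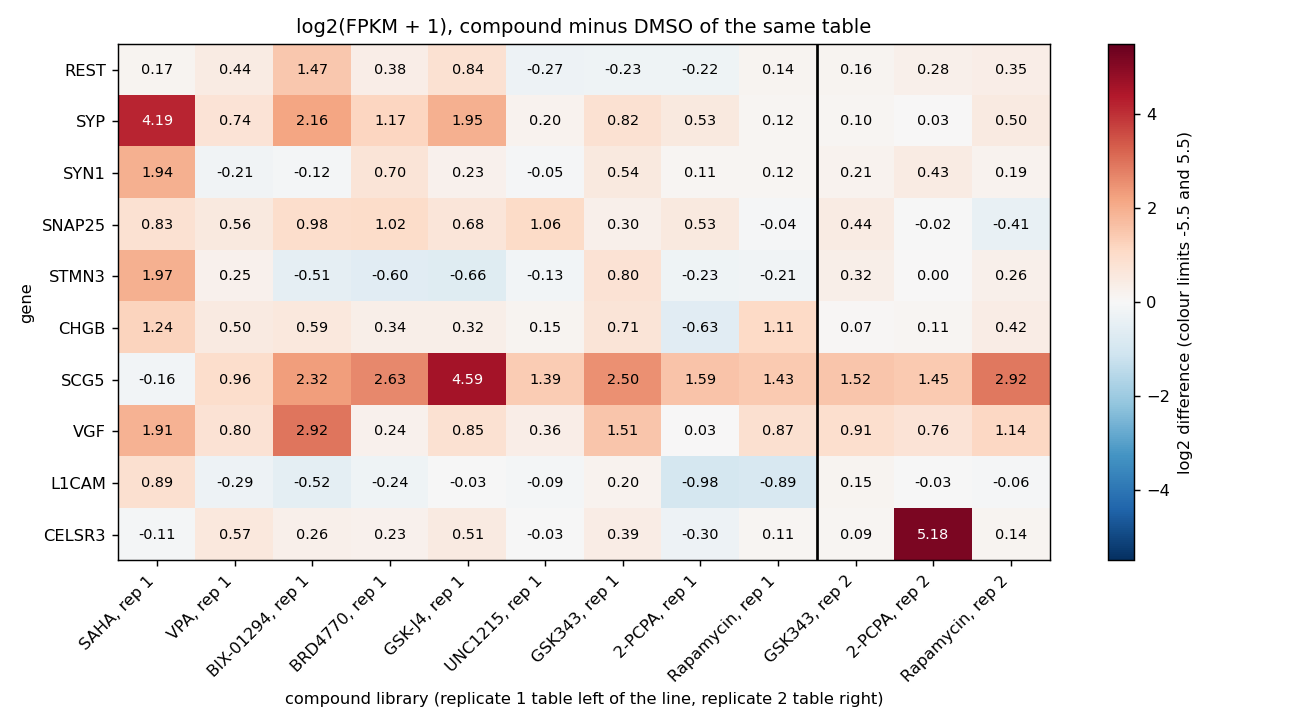
Difference from the DMSO library of the same table in log2(FPKM + 1) (colour and printed value) for each of the 10 genes (rows) in each of the 12 compound libraries (columns), red where higher and blue where lower than DMSO. The SAHA column holds the largest values of SYP (4.19), STMN3 (1.97) and SYN1 (1.94), and the GSK-J4 column the largest of SCG5 (4.59).

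The 6 compounds with 1 library allow no test, and their differences are described by size. Because the 10 genes were chosen with earlier results known, the shares of all genes are given for scale only. SAHA put 5 of the 10 genes past 2-fold higher, where 7.79% of the 12804 genes averaging 1 FPKM or more in that table were: SYP by 4.19, STMN3 by 1.97, SYN1 by 1.94, VGF by 1.91 and CHGB by 1.24. L1CAM (0.89) and SNAP25 (0.83) were next, and REST (0.17), CELSR3 (−0.11) and SCG5 (−0.16) were near DMSO. VPA, also a deacetylase inhibitor, put none of the 10 past 2-fold (background 2.81% higher), and its largest differences were 0.96 for SCG5, 0.80 for VGF and 0.74 for SYP. Without the added 1, its FPKM ratios were 3.13 for SCG5, 2.97 for SYP and 2.17 for CHGB, all from DMSO levels under 1 FPKM. SAHA was given at 1 μM and VPA at 20 μM, so these values stand side by side and the difference between the 2 compounds was not assessed.

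BIX-01294 put 4 of the 10 genes past 2-fold higher (background 9.97%): VGF by 2.92, SCG5 by 2.32, SYP by 2.16 and REST by 1.47. SNAP25 stood just under that size, at 0.98. BRD4770, aimed at the same enzymes, put 3 past 2-fold higher (background 5.94%): SCG5 by 2.63, SYP by 1.17 and SNAP25 by 1.02. VGF differed by 0.24 and REST by 0.38 with BRD4770. Doses and times differ here too (5 μM for 12 h with BIX-01294, 20 μM for 24 h with BRD4770). GSK-J4 put 2 past 2-fold higher (background 8.92%), SCG5 by 4.59 and SYP by 1.95, with VGF at 0.85 and REST at 0.84. UNC1215 put 2 past 2-fold higher (background 1.8%), SCG5 by 1.39 and SNAP25 by 1.06. None of the 10 genes was past 2-fold lower in any of the 6 libraries, where 6.04% of all genes were with BIX-01294, 5.96% with GSK-J4, 4.84% with BRD4770, 3.83% with SAHA, 1.59% with VPA and 1.26% with UNC1215. The medians of the 10 genes were 1.07 with SAHA, 0.78 with BIX-01294, 0.60 with GSK-J4, 0.53 with VPA, 0.36 with BRD4770 and 0.06 with UNC1215, beside medians of −0.01 to 0.06 over all genes. SYN1 reached the minimum of 1 FPKM only through its SAHA value: its mean over the 10 libraries was 1.02 FPKM, and 0.631 without SAHA, so it had to be high there to be counted. With the minimum taken over the other 9 libraries, a choice made after seeing the data, SAHA put 4 of the remaining 9 genes past 2-fold higher (7.25% of all genes under the same rule), and their median was 0.89.

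Other genes known as REST targets were followed beside the 10. Most of the 30 were low in U2OS, and 9 averaged 1 FPKM or more in the replicate 1 table. Of the 9, SAHA put 3 past 2-fold higher (7.79% of all genes) and 1 lower (3.83%), and of all 30 it put 4 higher and 1 lower. The 3 were CDK5R2, an activator of the kinase CDK5, at 17.1 FPKM with SAHA against 1.51 with DMSO, the muscarinic receptor gene CHRM4 at 7.46 against 0.869, and the kinase scaffold MAPK8IP1 at 55.2 against 13.2. CDK5R1, which encodes the related CDK5 activator, was the one lower, at 1.41 FPKM with SAHA against 4.18 with DMSO.

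The other 5 compounds put at most 2 of the 9 past 2-fold in either direction. BIX-01294 put 1 higher (9.97% of all genes), the neurotrophin gene BDNF (18.8 FPKM against 4.91 with DMSO), and 1 lower (6.04%), CDK5R2 (0.208 against 1.51). BRD4770 put 1 higher (5.94%), CHRM4 (5.07 FPKM against 0.869 with DMSO), and none lower. GSK-J4 put none higher (8.92%) and 2 lower (5.96%), CDK5R1 (0.000437 FPKM against 4.18 with DMSO) and the neuronal tubulin gene TUBB3 (43.9 against 95.6). VPA put 1 higher (2.81%), CHRM4 (2.83 FPKM against 0.869 with DMSO), and UNC1215 put none in either direction (1.8% and 1.26%). A count of 1 among 9 genes cannot be told from these shares. The median differences of the 9 were 0.76 with SAHA and −0.70 with GSK-J4.

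In the replicated comparisons 10 of the 30 were tested and none passed in limma. With 2-PCPA 7 of the 10 were lower than DMSO in both replicates and none was higher, where 42.2% and 11.5% of all tested genes were, and their median was −0.34. TUBB3 was among them, at 58.3 and 103 FPKM with 2-PCPA against 95.6 and 145 FPKM with DMSO (−0.70 and −0.49 in the replicates; difference −0.60 ± 0.22, SE, n = 2 each; adjusted p = 0.592 in limma). The median over all tested genes with 2-PCPA was −0.20, which lies between those of the 2 replicates.

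Of 8 genes of dense-core granules outside the 10, 2 were past 2-fold higher with BRD4770 (5.94% of all genes), 1 with SAHA (7.79%) and 1 with VPA (2.81%), none with BIX-01294 (9.97%), GSK-J4 (8.92%) or UNC1215 (1.8%), and none was past 2-fold lower with any of the 6. The gene past 2-fold with all 3 of these compounds was PCSK1N, an inhibitor of the convertase PCSK1. It was at 61.9 FPKM with SAHA, 30.2 with BRD4770, 25.9 with VPA, 16.4 with UNC1215, 12.98 with GSK-J4 and 8.63 with BIX-01294, against 11.3 with DMSO in the same table. With GSK343 it stood at 36.2 and 31.3 FPKM, against 11.3 and 25.4 with DMSO (difference 0.94 ± 0.36, SE, n = 2 each; adjusted p = 0.949 in limma). PAM, which amidates peptides, was at 72.5 FPKM with BRD4770, 55.0 with GSK-J4, 36.3 with VPA, 25.4 with BIX-01294, 22.8 with SAHA and 22.3 with UNC1215, against 30.2 with DMSO, so that it lay on both sides of DMSO. With GSK343 it was at 18.4 and 21.8 FPKM, against 30.2 and 23.8 with DMSO. With SAHA, PTPRN was at 51.5 FPKM against 29.1 with DMSO and CPE at 31.3 against 21.9. PTPRN2, a granule membrane protein, was at 0.791 FPKM with SAHA against 1.38 with DMSO. Of the 5 averaging 1 FPKM or more, all 5 were higher than DMSO with GSK-J4 and with VPA. The count was 3 with SAHA, BRD4770 and UNC1215 and 2 with BIX-01294, where 48.3% to 56.0% of all genes were higher with these compounds. In the replicated comparisons with DMSO 5 of the 8 were tested and none passed in limma. PCSK2, the convertase that 7B2 serves, stayed at or under 0.23 FPKM in all libraries, including GSK-J4, where SCG5 was at 42.4.

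Neuronal lineage markers also differed from DMSO in some of these libraries, in both directions. Of 11 markers, 5 averaged 1 FPKM or more. With SAHA 3 of the 5 were past 2-fold higher (7.79% of all genes) and none lower, the count over all 11 was 5 higher, and their summed level was 243 FPKM, against 72.1 with DMSO. The cell adhesion gene NCAM1 was at 48.2 FPKM with SAHA against 8.18 with DMSO, the neurofilament gene NEFL at 98.7 against 31.0, and the enolase gene ENO2 at 86.1 against 28.1. With GSK-J4 and BRD4770 the summed levels were 340 and 296 FPKM, of which ENO2, a glycolytic enzyme also made outside neurons, took 255 and 229. GSK-J4 put 2 of the 5 past 2-fold higher (8.92%) and 1 lower (5.96%), and BRD4770 put 1 higher (5.94%) and 1 lower (4.84%). The one lower was SOX2 in both, a transcription factor of neural progenitors and other stem cells, at 0.177 FPKM with GSK-J4 and 0.145 with BRD4770, against 2.33 with DMSO. With BIX-01294 the sum was 73.7 FPKM and no marker was past 2-fold. INSM1 was listed at 0 with SAHA, BIX-01294, GSK-J4 and BRD4770.

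Among the 9 osteoblast lineage markers RUNX2, the transcription factor of that lineage, was lower than DMSO with all 9 compounds of the replicate 1 table. It stood at 3.22 FPKM with UNC1215, 2.65 with GSK343, 2.42 with 2-PCPA, 2.41 with VPA, 1.88 with GSK-J4, 1.62 with SAHA, 1.48 with rapamycin, 1.28 with BIX-01294 and 0.629 with BRD4770, against 5.27 with DMSO. In the replicate 2 table it was higher than DMSO with all 3 compounds, at 2.76 FPKM with 2-PCPA, 2.11 with GSK343 and 2.01 with rapamycin, against 1.42 with DMSO, so the order turned between the tables. SPP1, a secreted bone matrix protein, was at 4.42 FPKM with SAHA and 3.68 with GSK-J4, against 0.809 with DMSO. It was the 1 of the 9 past 2-fold higher with SAHA (7.79% of all genes) and GSK-J4 (8.92%). With BRD4770 (5.94%) it was ALPL, at 4.76 FPKM against 0.256 with DMSO, which averaged under 1 FPKM. RUNX2 was the 1 past 2-fold lower with BIX-01294 (6.04%), BRD4770 (4.84%), GSK-J4 (5.96%) and SAHA (3.83%). BIX-01294, VPA and UNC1215 put none higher (9.97%, 2.81% and 1.8%), and the last 2 none lower (1.59% and 1.26%). The summed level of the 9 was 412 FPKM with BIX-01294, 253 with BRD4770, 424 with GSK-J4 and 374 with SAHA, against 448 with DMSO. The median difference of the 4 markers averaging 1 FPKM or more was −0.61 with BIX-01294, −0.79 with BRD4770, −0.16 with GSK-J4 and −0.28 with SAHA. The part of the markers of either lineage in the levels of the 10 genes was not tested.

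**Figure D4:**
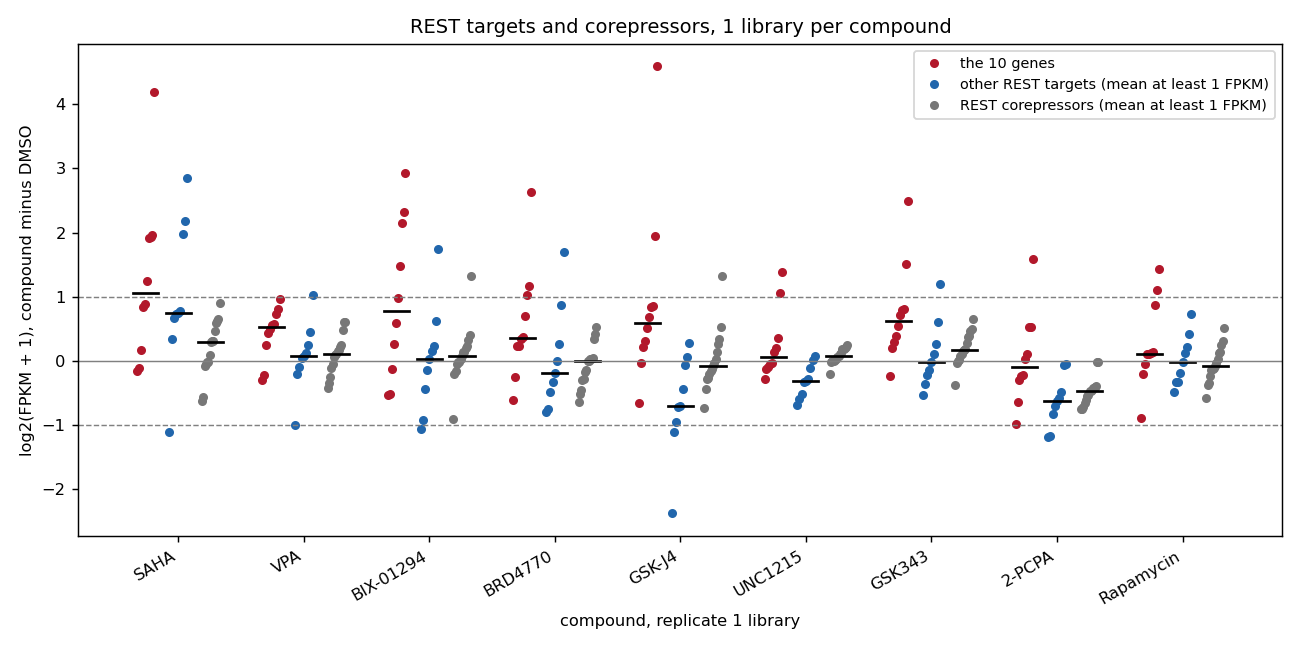
Difference from DMSO in log2(FPKM + 1) (y axis) in the replicate 1 library of each compound (x axis) for the 10 genes, the other REST targets and the REST corepressors, the lists limited to genes averaging 1 FPKM or more in that table. Each point is 1 gene, black bars are medians and dashed lines mark 2-fold; the 10 genes had medians of 1.07 with SAHA and 0.78 with BIX-01294, and the other REST targets 0.76 with SAHA and −0.70 with GSK-J4.

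The genes whose levels ran most like each of the 10 over the 10 libraries of the replicate 1 table were found by Pearson's r of log2(FPKM + 1) among 12263 genes. This is a description of libraries from 1 table, in which the highest library weighs heavily. For REST they were the kinase gene NLK (r = 0.977), MYC (0.969), which encodes the growth-related transcription factor, and CREB5 (0.958), and all 3 were highest with BIX-01294: NLK at 12.8 FPKM against 5.69 with DMSO, MYC at 256 against 33.4 and CREB5 at 48.1 against 3.50. For SYP it was the collagen gene COL5A3 (r = 0.950), for SYN1 the calpain gene CAPN5 (0.966), for STMN3 the integrin gene ITGA7 (0.970) and for L1CAM TMEM120B (0.953), all of them highest with SAHA. CHGB ran most like COX4I1, a subunit of cytochrome c oxidase (r = 0.947), which was also highest with SAHA. For VGF it was the helicase gene HELQ (0.958) and for SNAP25 C12orf39 (0.898), both highest with BIX-01294, for SCG5 FLJ00285 (0.937), highest with GSK-J4, and for CELSR3 ZNF496 (0.928), highest with VPA. No 2 of the 10 genes shared their closest gene. Over the same 10 libraries REST had a positive r with 6 of the other 9 genes, VGF (0.63), CELSR3 (0.50), SYP (0.43), SCG5 (0.42), SNAP25 (0.35) and CHGB (0.23), and a negative r with STMN3 (−0.36), SYN1 (−0.16) and L1CAM (−0.10).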

How the data were processed

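The authors deposited FPKM values per gene in 2 tables, 1 for each replicate number. The submitters' processing notes name FastQC, cutadapt, TopHat2 and the build hg19. Neither the program behind the FPKM values nor the annotation nor the strand is given in the sources used here, so overlapping, antisense and near-identical genes are uncertain. Per the labels' protocols, poly(A) RNA was isolated and libraries were made with a ThruPLEX kit. Absolute depth is unknown because FPKM holds no counts. The tables have 28502 and 25209 rows with 22919 shared symbols; 1 row named unknown was dropped and every column was used.

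Differences were taken within a table on log2(FPKM + 1), which understates changes of low genes. The 12603 genes averaging 1 FPKM or more in the 8 libraries of 2-PCPA, GSK343, rapamycin and DMSO entered 1 fit in limma 3.58.1 (R 4.3.3), with the replicate number as a block, a trend in the prior variance and Benjamini-Hochberg adjustment at 0.05. The fit had 3 residual and 5.42 prior degrees of freedom, and was tested on simulated data. The block stands for the table; same-numbered libraries of different groups deviated together from their group means (r between 0.710 and 0.784 over 6 pairs), partly because the tables differ. Compounds with 1 library were set against DMSO replicate 1 with no test. Figures were drawn with matplotlib 3.10.9.

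All 10 genes are given in every library. Genes of the other lists were counted over the whole list, except the 3 genes of REST turnover and splicing (BTRC, USP7 and SRRM4). Those named are up to 4 per list and comparison with the largest differences among genes averaging 1 FPKM or more. The corepressors KDM1A, RCOR1, HDAC1, HDAC2, SIN3A and EHMT2 were named as well. So were some genes under that mean, such as SP7, INSM1, PCSK2 and ALPL. The members and lists were chosen with earlier results of these data known. Alternatives were other pseudocounts, filters, scalings, fits and folds, each library left out, and 3 chosen after seeing the data: leaving out rows that share their replicate 2 values with another row, leaving small RNA and clone rows out of the single-library background, and taking the minimum mean without the compound's own library.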

Additional observations from a re-analysis of the deposited data

Results flagged for a closer look

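The row of MIR4793, a microRNA inside CELSR3, read 184 FPKM in 2-PCPA replicate 2, against 4.12 FPKM in DMSO replicate 2. It lies outside the comparisons made here and stood above the control. The CELSR3 row held the same values, and MIR4793 was listed at 0 in all libraries of the replicate 1 table, 2-PCPA included. No group had the 4 libraries needed to look for a library far from the others of its group.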

How the results depend on the processing

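None of the 8 tested genes passed in any of the 5 replicated comparisons, and the same count of 0 held without the replicate block. Leaving out small RNA and clone rows gave 1 call with 2-PCPA, 2 with GSK343 and 1 with rapamycin, each against DMSO. Fitting only the 2 groups compared gave 2 calls for 2-PCPA against DMSO (CELSR3 and SCG5) and 1 for 2-PCPA against rapamycin (CELSR3). The CELSR3 replicates differed in sign in both comparisons, so its calls rest on the spread taken from all genes and not on its own. With each library left out in turn, the calls ranged from 0 to 1 except with GSK343 against DMSO, where they were 0 throughout; the calls were CELSR3 without 2-PCPA replicate 1 and SCG5 without rapamycin replicate 1 (difference 3.10, adjusted p = 0.0252 in limma). Both rest on 1 library of the compound, which is assumed to vary like the other groups. The number of all genes called moved more: 3, 2, 2, 4 and 6 in the 5 comparisons became 0 to 272, 0 to 52, 0 to 70, 0 to 45 and 0 to 389 under other settings, and 2 to 47, 0 to 44, 0 to 42, 1 to 1844 and 1 to 49 with a library left out.

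STMN3 changed sign with 2-PCPA against DMSO, where −0.12 became 0.085 under median centring, 0.040 under quantile normalization and 0.19 under TPM scaling, and with rapamycin, where 0.026 became −0.033 under TPM scaling. For 2-PCPA against rapamycin its −0.14 became 0.00947 under median centring and 0.22 under TPM scaling. Leaving out a library changed the sign of further small differences from DMSO. With 2-PCPA the ranges were −0.16 to 0.21 for REST, −0.24 to 0.0052 for STMN3, −0.028 to 0.82 for VGF and −0.34 to 5.22 for CELSR3. With GSK343 they were −0.22 to 0.15 for REST, −0.15 to 0.49 for L1CAM and −0.83 to 1.31 for CELSR3. With rapamycin they were −0.086 to 0.70 for SYP, −0.25 to 0.30 for STMN3 and −0.75 to 0.99 for CELSR3. For SCG5 they were −1.21 to 0.22 for 2-PCPA against GSK343 and −1.59 to 0.27 for 2-PCPA against rapamycin. In the same comparisons they were −0.58 to 4.98 and −0.47 to 5.10 for CELSR3, and −0.42 to 0.13 for STMN3 against rapamycin. In fits without a library of either group compared, the CELSR3 differences of GSK343 and rapamycin from DMSO took their replicate block from the complete groups. These include 2-PCPA, with its 184 FPKM in replicate 2. The CELSR3 replicates themselves gave 0.39 and 0.09 with GSK343 and 0.11 and 0.14 with rapamycin. For the other ranges the cause was not tested.

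Among single libraries, a pseudocount of 5 left 1 gene past 2-fold with BRD4770, 1 with GSK-J4, 3 with SAHA and 0 with UNC1215. A limit of 1.5-fold gave 5 with BRD4770, 6 with GSK-J4 and 3 with VPA. For VPA a pseudocount of 0.1 gave 2 and TPM scaling 1. Of 661 recomputed differences of single genes in the replicated comparisons, 623 kept their direction and side of the threshold, 27 changed sign and 11 newly passed. With 2 libraries a group, the median 95% interval reached 0.57 to either side, and levels near or under 1 FPKM (SYP, SYN1, CHGB and SCG5 with DMSO) leave the ratios imprecise.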
